A study of Mus musculus with 36 samples.

Results

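The loss of the miR-17~92 microRNA cluster was examined in the early mouse ovary, by comparing the 3 XX knockout (KO) libraries with the 3 XX control libraries of gonads at embryonic stage E12.5. These 6 libraries were chosen by genotype, sex and stage from the 36 samples of the series, and they belong to a set of 12 gonad libraries from 4 genotypes (XX and XY, control and KO). The KO embryos were miR-17~92 del/del and carried Tg(CAG-cre)1Nagy, so the floxed cluster had been deleted by a Cre recombinase driven by the ubiquitous CAG promoter, on a mixed C57BL/6 and 129S4/SvJae background. The controls carried the label WT, and their exact genotype was not given in the sources used here. Each library was made from gonads isolated from the mesonephros, with 2 pairs of gonads pooled, by poly(A) selection and a strand-specific kit. Nothing in the labels tied the libraries to litters or days. The p-values came from a fit over all 12 libraries, XY included, so they measured the spread between those libraries only.

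MicroRNAs are short RNAs that guide Argonaute proteins to messenger RNAs, mostly through pairing of the seed (the bases at positions 2 to 8) with the 3′ untranslated region (UTR), and thereby lower the stability and translation of their targets. The miR-17~92 cluster is a single transcript, produced from the Mir17hg host gene, that is processed into several microRNAs with roles in proliferation and survival. In the bipotential gonad, supporting cells become Sertoli cells in XY embryos after SRY raises SOX9, or pre-granulosa cells in XX embryos, where WNT4, RSPO1 and FOXL2 act. Primordial germ cells colonise the gonad at about this time, and in XX gonads they then enter meiosis.

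The mature sequences of the 6 microRNAs of the cluster (RefSeq, GRCm38) are shown because their seeds define what the KO lost. All 6 lie on the + strand of chromosome 14, with hairpins at chr14:115043671-115044506. Capitals mark the seed.
miR-17-5p: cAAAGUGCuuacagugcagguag
miR-20a-5p: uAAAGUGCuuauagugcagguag
miR-18a-5p: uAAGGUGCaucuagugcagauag
miR-19a-3p: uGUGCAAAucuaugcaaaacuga
miR-19b-3p: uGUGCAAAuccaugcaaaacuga
miR-92a-3p: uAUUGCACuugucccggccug
miR-17-5p and miR-20a-5p shared a seed, as did miR-19a-3p and miR-19b-3p, so the 6 microRNAs fell into 4 seed families.

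Total counts were between 15414582 and 19648046 in the XX controls and between 26849689 and 44155275 in the XX KO libraries, the deepest being KO replicate 2. Levels below are given as CPM, the counts scaled to a common library size after TMM adjustment. Sry, the Y-linked testis-determining gene, had 0 counts in the 6 XX libraries, which allows up to 0.0194 CPM. Mir17hg, the host gene, was measured at 30.4, 37.3 and 32.4 CPM in the controls and 83.8, 82.9 and 66.7 CPM in the KO libraries. It was higher in every KO library (log2 fold change 1.22 ± 0.21 (SE), FDR = 0.00913, edgeR's quasi-likelihood test with Benjamini-Hochberg adjustment, called FDR here). The deposited count covers the whole host gene and does not separate the deleted stretch, so it could not serve as a check of the deletion. The study itself checked the deletion with its bulk RNA-seq reads, and reported none over the cluster in KO gonads.

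With all libraries, a small share of the genes tested changed in XX gonads, and the changes were of mixed size. Of 14348 genes tested, 755 (5.26%) differed between XX KO and XX control gonads at FDR under 0.05. Of these differentially expressed genes (DEGs), 490 (3.42% of genes tested) were higher and 265 (1.85%) were lower in the KO. Their median log2 fold changes were 1.03 and -0.91, and 395 of the 755 changed by less than 2-fold. At least a 4-fold difference was found for 77 higher and 9 lower DEGs. The CPM values of the groups did not overlap for 736 of the 755 DEGs, against 23.5% of all genes tested. The DEGs were called on the same counts, so this separation largely follows from the selection.

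Which libraries entered the comparison changed the number of DEGs more than any other choice. Leaving out KO replicate 2 raised it to 1670 of 14314 genes (11.7%), with 719 higher (5.02%) and 951 lower (6.64%), so that the share of DEGs higher in the KO went from 64.9% to 43.1%. Leaving out control replicate 1, control replicate 2 or KO replicate 3 instead left 35, 83 and 117 DEGs. The XY libraries mattered too, as they share the estimate of the spread. The 6 XX libraries alone gave 296 DEGs, and leaving out XY KO replicate 2 left 491. At an unadjusted p under 0.05, 3385 genes passed with all libraries, 2660 without control replicate 1, 1991 without control replicate 2 and 1998 without KO replicate 3. None of the 755 DEGs was called in the opposite direction in any of these fits. The counts and lists below are given with all libraries unless a fit is named, and genes given for another fit alone were named after their values were seen.

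**Figure D1:**
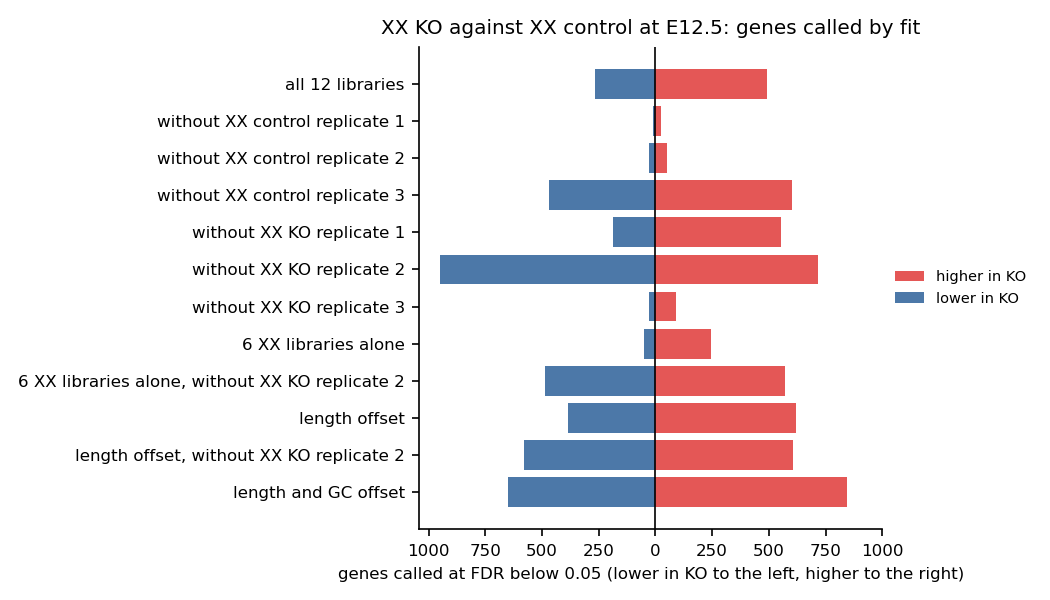
Number of DEGs higher (right) and lower (left) in XX KO than in XX control gonads at E12.5 under each way of fitting the same counts, 1 bar per fit. With all 12 libraries 490 were higher and 265 lower. Without XX KO replicate 2 there were 719 and 951, and without control replicate 1 there were 26 and 9.

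Genes of primordial germ cells were lower in XX KO gonads. Of 20 listed germ cell genes, 13 fell (against 1.85% of all genes tested), none rose and all 20 had a negative log2 fold change, with a median of -0.93 against -0.00 over all genes tested. Those that fell included the pluripotency factors Pou5f1, Nanog, Sox2, Esrrb and Sall4, the specification factors Prdm1, Prdm14 and Tfap2c, and Kit, the receptor for the survival signal KIT ligand. The summed level of the 20 genes was 1851, 2751 and 1690.2 CPM in the controls and 1380.5, 1288 and 704 CPM in the KO libraries. Every KO library was below every control, and KO replicate 3 was the lowest. In bulk libraries such as these, fewer germ cells and less RNA of these genes per germ cell cannot be told apart.

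Pou5f1, which encodes OCT4, was measured at 157, 200.4 and 149 CPM in the controls and 109.5, 90.5 and 68.7 CPM in the KO libraries (log2 fold change -0.91 ± 0.18 (SE), FDR = 0.0152). Sall4, a zinc finger factor of germ cells, was at 158, 223 and 122 CPM in the controls and 86.3, 88.6 and 44.9 CPM in the KO libraries (log2 fold change -1.20 ± 0.26 (SE), FDR = 0.0221). Tfap2c, which acts in germ cell specification, was at 48.8, 57.1 and 38.1 CPM in the controls and 22.9, 25.8 and 12.6 CPM in the KO libraries (log2 fold change -1.23 ± 0.24 (SE), FDR = 0.0137). The groups did not overlap for any of the 3. Sox2 and Nanog gave log2 fold changes of -1.26 (FDR = 0.0357) and -1.22 (FDR = 0.0222), and Kit gave -0.84 (FDR = 0.0202). The other members that fell, the homeobox genes Rhox6 and Rhox9, Dppa5a and Tdh, had log2 fold changes between -1.03 and -0.83.

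The RNA-binding proteins Dazl and Ddx4, which mark germ cells once they have reached the gonad, did not pass the test. Dazl was at 311, 735 and 429 CPM in the controls and 379.5, 383 and 119 CPM in the KO libraries (log2 fold change -0.74 ± 0.38 (SE), FDR = 0.253), and Ddx4 had a log2 fold change of -0.92 (FDR = 0.0876). The Dazl values overlapped, because KO replicates 1 and 2 lay above control replicate 1. Some DEGs outside the list are also known from germ or pluripotent cells. Zfp42, the pluripotency marker REX1, had a log2 fold change of -1.14 (FDR = 0.0137). Rpl10l and Rpl39l, the germline copies of widely used ribosomal protein genes, gave -1.16 (FDR = 0.0248) and -0.89 (FDR = 0.0357).

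The 12 tested genes of meiotic entry all had negative log2 fold changes (median -0.61), and none passed the test. Stra8, the gene that responds to retinoic acid as germ cells enter meiosis, was at 0.877, 44.3 and 25.4 CPM in the controls and 25.8, 16.6 and 22.4 CPM in the KO libraries (log2 fold change -0.13 ± 0.81 (SE), FDR = 0.941). Control replicate 1 stood far below the other controls for this gene and had the lowest summed level of the meiotic list among the controls. The germ cell counts rested on control replicates 1 and 2 and KO replicate 3. Without control replicate 1 or 2, 0 of the 20 germ cell genes passed, and without KO replicate 3 only 1 did, while the list's median stayed between -1.09 and -0.74. The number that fell was 13 of the 20 without KO replicate 2, as with all libraries.

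**Figure D2:**
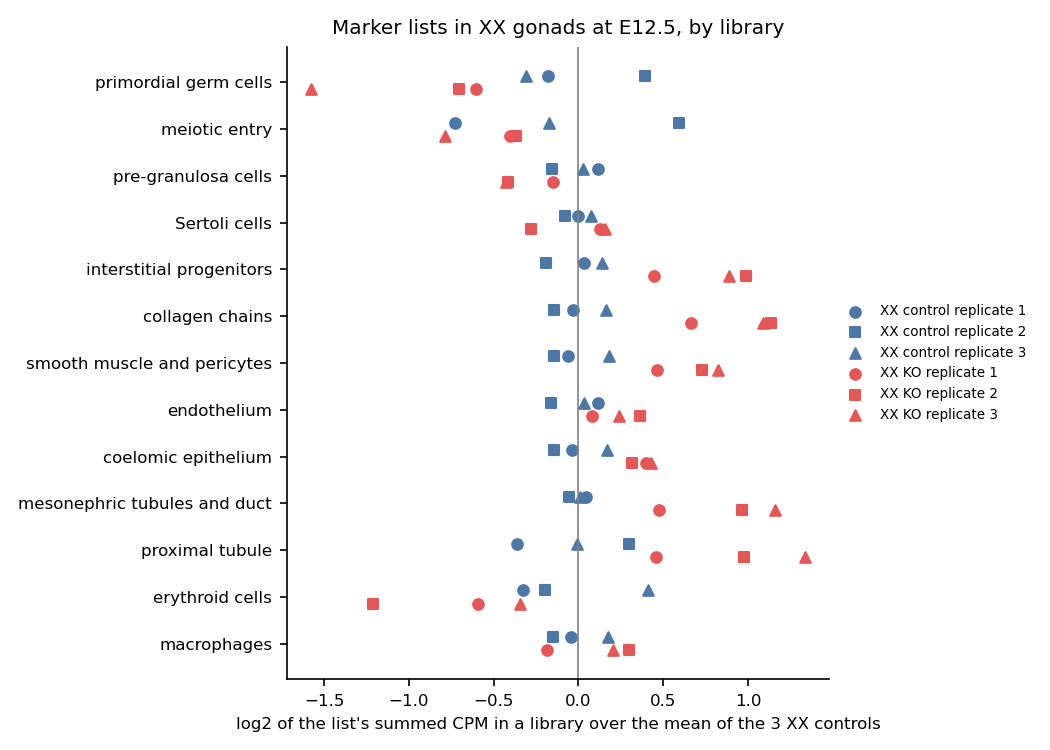
Summed level of each gene list in the 6 XX libraries at E12.5, as the log2 ratio of its summed CPM to the mean of the 3 XX controls, 1 point per library. The germ cell list lies lower in the 3 KO libraries than in the controls, the interstitial progenitor, collagen and tubule lists lie higher, and the pre-granulosa points of KO replicate 1 and the controls overlap.

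The supporting cell genes showed no change that passed the test. None of 18 pre-granulosa genes and none of 18 Sertoli genes was a DEG in XX gonads, with medians of -0.05 and 0.05. The summed pre-granulosa level was 3488, 2892 and 3289 CPM in the controls and 2908, 2421 and 2394 CPM in the KO libraries, with KO replicate 1 inside the range of the controls and the other KO libraries below it. By library, the median log2 difference of the 18 genes from the controls was 0.09, -0.22 and -0.10 in the KO libraries. In the controls (each against the other 2) it was 0.28, -0.19 and -0.01. In XY gonads of the same stage the same lists moved by medians of 2.05, with 16 of 18 genes higher in the KO, and -4.61, with 18 of 18 lower. The XX and XY effects differed by the interaction test for 16 of the 18 pre-granulosa genes and 17 of the 18 Sertoli genes. Over all genes, 2951 (20.6%) differed between KO and control gonads in XY embryos, and the interaction was called for 1857 (12.9%).

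Foxl2, the transcription factor of granulosa cells, was measured at 63.1, 43.0 and 46.4 CPM in the controls and 61.2, 43.6 and 46.5 CPM in the KO libraries (log2 fold change -0.01 ± 0.26 (SE), FDR = 0.984). Wnt4, the ovarian signalling ligand, was at 301, 191 and 315 CPM in the controls and 423, 263 and 404 CPM in the KO libraries (log2 fold change 0.43 ± 0.24 (SE), FDR = 0.291). Both overlapped between the groups. Rspo1, a secreted enhancer of WNT signalling, was at 81.3, 78.7 and 95.8 CPM in the controls and 120.5, 93.1 and 151 CPM in the KO libraries, also with overlapping values. It did not pass with all libraries (FDR = 0.0894) and did without KO replicate 2, with a log2 fold change of 0.67 (FDR = 0.0192). Lef1 and Runx1, both transcription factors, passed in the other direction in that fit, with -0.57 (FDR = 0.0482) and -0.65 (FDR = 0.0473).

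Fst, the activin antagonist follistatin, and Kitl, the ligand of KIT, had negative values that did not pass with all libraries. Fst was at 314, 234 and 273 CPM in the controls and 219.7, 156 and 152 CPM in the KO libraries (log2 fold change -0.64 ± 0.19 (SE), FDR = 0.0701). Kitl was at 1199.8, 981 and 1006 CPM in the controls and 784, 675 and 416 CPM in the KO libraries (log2 fold change -0.76 ± 0.22 (SE), FDR = 0.0578). The groups did not overlap for either gene, and both passed when KO replicate 1 was left out, with log2 fold changes of -0.83 (FDR = 0.0315) and -0.96 (FDR = 0.0326). Among the testis genes, Sox9 was at 7.48, 4.84 and 7.13 CPM in the controls and 4.77, 10.1 and 8.39 CPM in the KO libraries (log2 fold change 0.26 ± 0.31 (SE), FDR = 0.619), and Amh, the anti-Müllerian hormone of Sertoli cells, had a log2 fold change of 0.47 (FDR = 0.609). None of 8 fetal Leydig cell genes passed either. Without KO replicate 2, 1 of the 18 Sertoli genes, the prostaglandin D synthase Ptgds, was higher (1.15, FDR = 0.0482), as was 1 of the 8 Leydig genes, the steroid enzyme Hsd3b1 (1.24, FDR = 0.0258).

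Genes of the interstitial compartment and of the extracellular matrix rose. Among 12 genes of interstitial progenitors 8 were higher (against 3.42% of all genes tested), none was lower and the median log2 fold change was 0.74. Their summed level was 1101, 943 and 1186 CPM in the controls and 1466, 2134 and 1995 CPM in the KO libraries. Of 43 collagen chains 17 rose and 1 fell (median 0.78), with a summed level of 5960.3, 5509.6 and 6807 CPM in the controls and 9649, 13374 and 12931 CPM in the KO libraries. Both sums were higher in all KO libraries than in all controls, and KO replicate 1 was the lowest of the KO libraries. It was also the lowest of them for the mesonephric and proximal tubule genes given below. The part of carried-over mesonephric tissue in the interstitial and collagen values was not tested.

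Gli1, the transcriptional readout of Hedgehog signalling, was at 7.84, 5.90 and 7.13 CPM in the controls and 14.99, 35.7 and 38.7 CPM in the KO libraries (4.29-fold, SE 0.37 on the log2 scale, FDR = 0.00913). Pdgfra, the PDGF receptor of interstitial cells, was at 339, 319 and 331 CPM in the controls and 424, 649 and 651 CPM in the KO libraries (log2 fold change 0.80 ± 0.17 (SE), FDR = 0.0194). The small proteoglycans Lum and Dcn had log2 fold changes of 2.38 (FDR = 0.00913) and 1.56 (FDR = 0.0135). The transcription factors Tcf21 and Gli2 and the ligand Wnt5a rose by between 0.65 and 0.95 on the log2 scale. Nr2f2, an orphan receptor of the same cells, did not pass (log2 fold change 0.44 ± 0.19 (SE), FDR = 0.177).

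Col3a1, a fibrillar collagen, was at 904, 802 and 1144 CPM in the controls and 1978, 2859 and 2525 CPM in the KO libraries (log2 fold change 1.37 ± 0.21 (SE), FDR = 0.00657). Col1a1 and Col1a2, the chains of type I collagen, gave 1.57 (FDR = 0.0283) and 1.16 (FDR = 0.0209), and Col6a1, Col6a2 and Col6a3, of microfibrillar type VI collagen, gave 1.14, 1.37 and 0.92. The chain that fell was Col19a1 (log2 fold change -1.85 ± 0.50 (SE), FDR = 0.0473). Without KO replicate 2, 7 of the 12 interstitial genes and 17 of the 43 collagen chains were higher. In that fit 2 chains were lower, Col12a1 (-0.99) and Col19a1 (-2.37), and the collagen median was 0.59. Without control replicate 1, control replicate 2 and KO replicate 3, the interstitial list kept 0, 1 and 0 higher genes and the collagen list 0, 3 and 5.

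**Figure D3:**
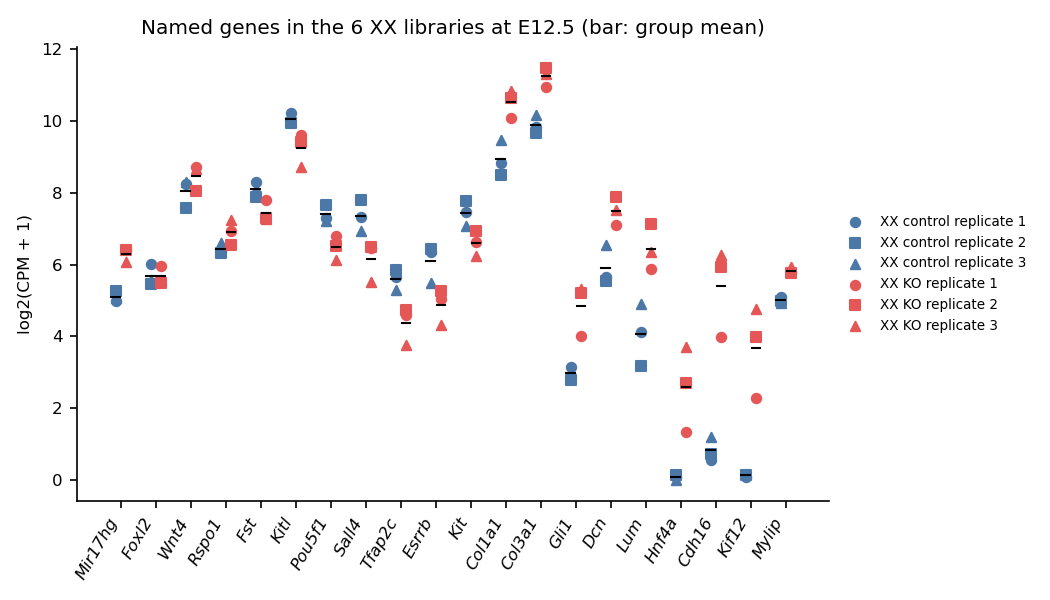
Level of 20 genes in the 6 XX libraries at E12.5 as log2(CPM + 1), 1 point per library, with bars at the group means. Pou5f1, Sall4 and Tfap2c are lower in all 3 KO libraries, Col3a1, Gli1, Cdh16 and Mylip are higher in all 3, and Foxl2 and Wnt4 overlap between the groups.

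The largest increases were in genes of renal tubule epithelium, among them Slc6a18, Slc34a1, Keg1, Hnf4a, Kif12 and Tinag. Of 12 tested genes of the mesonephric tubules and duct 6 rose (median log2 fold change 1.12), and of 12 proximal tubule genes 5 rose (median 1.28), against 3.42% of all genes tested. No gene of either list fell. The mesonephros lies beside the gonad and is removed when the gonad is isolated. Summed over the list, the mesonephric genes were at 87.8, 81.8 and 85.6 CPM in the controls and 118, 166 and 190.3 CPM in the KO libraries, and the proximal tubule genes at 45.6, 72.2 and 58.3 CPM in the controls and 80.7, 115 and 148 CPM in the KO libraries. The KO libraries were above all controls for both; KO replicate 1 was the lowest and KO replicate 3 the highest. The part of carried-over tubule tissue in these values was not tested.

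Cdh16, the kidney-specific cadherin, was at 0.464, 0.656 and 1.31 CPM in the controls and 14.8, 59.7 and 76.3 CPM in the KO libraries (log2 fold change 5.99 ± 0.95 (SE), FDR = 0.00913). Hnf4a, a transcription factor of the proximal tubule, had 3 counts in the controls together, for a KO to control ratio of 112 (exact 95% interval 38.1 to 544, counting error only). Keg1, an enzyme gene of kidney, had a ratio of 380 (68.0 to 15044) over 1 control count. Slc34a1, the phosphate carrier, and Slc6a18, an amino acid carrier, had 0 counts in the 3 controls. Against the 3 counts that 0 allows over the group, they were at least 43.2-fold and 58.0-fold higher.

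Other members of the lists moved less or not at all. Pax8, a transcription factor expressed throughout the tubules, was at 16.0, 14.0 and 16.4 CPM in the controls and 22.0, 25.0 and 36.9 CPM in the KO libraries (log2 fold change 0.85 ± 0.20 (SE), FDR = 0.0309), and Lrp2, the endocytic receptor megalin, had a log2 fold change of 1.39 (FDR = 0.0298). Calb1 and Cubn overlapped between the groups, with log2 fold changes of -0.24 (FDR = 0.642) and -0.58 (FDR = 0.352). In XY gonads 10 of the 12 mesonephric and 6 of the 12 proximal tubule genes were higher in the KO, against 10.3% of all genes tested. In the same lists 1 and 2 genes were lower. Calb1 and Cubn, which did not rise in XX gonads, had XY log2 fold changes of 5.37 and 1.54. At E11.5, where the tissue included the mesonephros, none of either list was called in XX gonads. Without KO replicate 2, 5 of the 12 genes rose in each list and Lhx1, a factor of the early nephric duct, fell. Without control replicate 1, control replicate 2 and KO replicate 3, the mesonephric list kept 0, 0 and 1 higher genes and the proximal tubule list 0, 2 and 2.

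Among lower DEGs whose groups did not overlap and whose mean level was at least 1 CPM, the largest decrease was in Sprr2d, an epithelial cornification gene, at 7.48, 1.01 and 1.75 CPM in the controls and 0.0329, 0.181 and 0.0726 CPM in the KO libraries (log2 fold change -4.97 ± 0.78 (SE), FDR = 0.00697). Cpa3, a mast cell protease, gave -3.14 (FDR = 0.0323), and Gmnc, a regulator of multiciliated cells, gave -2.34 (FDR = 0.0397). Their levels were under 10 CPM in every library. Nmur2, a neuropeptide receptor, and Chst4, a sulfotransferase, followed with -2.02 (FDR = 0.023) and -1.98 (FDR = 0.0145).

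Most other pathways held few DEGs. In the ERK feedback list (13 genes), Etv4 and Etv5, ETS factors downstream of FGF signalling, fell (-0.97, FDR = 0.0276, and -0.97, FDR = 0.028), and Egr1, an immediate early gene, rose (0.99, FDR = 0.0398). The list had 5 lower genes without KO replicate 2, and Egr1 no longer passed. Of 17 WNT readouts and antagonists, the antagonists Dkk3, Sfrp1 and Nkd1 rose, by between 0.66 and 0.85 on the log2 scale, while Axin2, the standard readout of the pathway, was at 109.6, 132 and 116 CPM in the controls and 115, 119 and 125 CPM in the KO libraries (log2 fold change 0.01 ± 0.14 (SE), FDR = 0.982). Without KO replicate 2 the same 3 antagonists rose and 2 genes of the list fell, Lef1 and Znrf3, a ubiquitin ligase that removes WNT receptors (-0.55, FDR = 0.0188).

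Of 28 replication and mitosis genes only Ccnb1, cyclin B1, passed as lower (log2 fold change -0.71 ± 0.16 (SE), FDR = 0.0258). Of the 28 values 24 were negative and 4 positive, with a median of -0.22. Without KO replicate 2 the kinase Bub1 and the topoisomerase Top2a fell as well. In coelomic epithelium the keratins Krt7 and Krt19 rose among 6 genes tested, by 0.68 and 1.11, joined without KO replicate 2 by Upk3b, a uroplakin. Among the 14 endothelial genes no DEG was found and all 14 values were positive (median 0.29). Macrophage genes held 1 DEG of 15 (Lyve1, 2.13, FDR = 0.0427), smooth muscle and pericyte genes 1 of 9 (Kcnj8, 1.62, FDR = 0.0309) and red cell genes 0 of 10. Without KO replicate 2 no macrophage gene passed, Klf1, a red cell transcription factor, rose (1.61, FDR = 0.0343), and 4 of the 9 smooth muscle and pericyte genes rose, namely Acta2 (1.12), Tagln (1.02), Cspg4 (0.51) and Kcnj8 (1.67). The summed level of the red cell genes was 1655, 1812 and 2751 CPM in the controls and 1374, 895 and 1634 CPM in the KO libraries. No gene passed among 20 of cholesterol synthesis, 7 of neural crest and neurons, 5 of the adrenal primordium or 77 subunits of oxidative phosphorylation.

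Of 17 amino acid stress genes Aldh18a1, a proline synthesis enzyme, rose (0.46, FDR = 0.0358) and Asns, asparagine synthetase, fell (-1.05, FDR = 0.0309). The immediate early list of 13 genes had Egr1 and Jun (1.07, FDR = 0.037) higher with all libraries and no DEG without KO replicate 2. In the glycolysis list of 20 genes, Pfkl and Tpi1 rose by 0.64 and 0.56, and without KO replicate 2 the lactate dehydrogenase gene Ldha rose as well.

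The set of DEGs depended on KO replicate 2. Its weight in a fit that estimates the quality of each library was 0.334, the lowest of the 12, against 0.725 to 1.28 in the other XX libraries. Of the 755 DEGs, 666 were also called without it (417 higher and 249 lower), which is 88.2% of the first set and 39.9% of the second. For the 417 genes higher in both fits, the median difference from the controls was 0.86, 0.97 and 1.16 on the log2 scale in KO replicates 1, 2 and 3. For the 249 lower in both, it was -0.83, -0.68 and -1.15.

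The calls gained by leaving it out were mostly genes on which KO replicate 2 differed less from the controls. They were 302 higher genes, with a median length of 2613 bases and median differences of 0.57, 0.25 and 0.70 in the 3 KO libraries, and 702 lower genes, with a median length of 8442 bases and differences of -0.59, -0.11 and -0.79. The genes were selected on the same values, so these medians are a description only. The median GC content of the 702 genes was 44.0%. The calls lost were 73 higher genes, with a median length of 5553 bases and differences of 0.67, 1.54 and 1.17, and 16 lower ones. Gene length here is the number of bases covered by the exons of all transcripts of a gene (GENCODE, GRCm38).

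The gained calls included ribosomal protein and Zfp genes. Their median lengths were 1754.5 and 4710.5 bases, against 4372.5 over all genes tested, so only the ribosomal protein genes lay far from it. Of 84 ribosomal protein genes, which are short, 2 fell and 0 rose with all libraries. Without KO replicate 2, 15 rose, against 5.02% of all genes. In a fit that also left out KO replicate 2 and had a length offset, 3 rose, against 607 of all 14314 genes. The offset removes a smooth trend with length from each library. The share of counts in ribosomal protein genes was 1.73%, 2.03% and 2.39% in the controls and 2.81%, 1.87% and 2.84% in the KO libraries, with KO replicate 2 inside the range of the controls. Of 344 zinc finger genes named Zfp, 5 fell with all libraries, against 1.85% of all genes, and 33 fell without KO replicate 2, against 6.64%. With the offset as well, 20 fell, against 579 of all 14314 genes. The median log2 fold change of the Zfp genes without KO replicate 2 was -0.15 both without and with the offset. Ago2, Ago3, Dgcr8, Tnrc6a and Tnrc6b, which act in microRNA processing or silencing, were not DEGs with all libraries and fell without KO replicate 2, with log2 fold changes between -1.19 and -0.51. These 5 were named after their values were seen.

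The differences in level followed transcript length within the groups as well as between them. Each XX library was set against the mean of the controls (a control against the other 2), and the rank correlation of the log2 difference with length over 14334 genes was 0.12, 0.25 and -0.34 in control replicates 1, 2 and 3 and -0.39, 0.20 and -0.23 in KO replicates 1, 2 and 3. Control replicate 3 thus had the sign of KO replicates 1 and 3, and KO replicate 2 had that of control replicates 1 and 2. From the shortest to the longest of 5 equal classes of genes, the median difference went from 0.21 to -0.25 in KO replicate 1, from 0.19 to -0.20 in KO replicate 3 and from 0.20 to -0.13 in control replicate 3. In KO replicate 2 it went from -0.12 to 0.07. These are correlations across genes, which share the library and are not independent replicates.

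**Figure D4:**
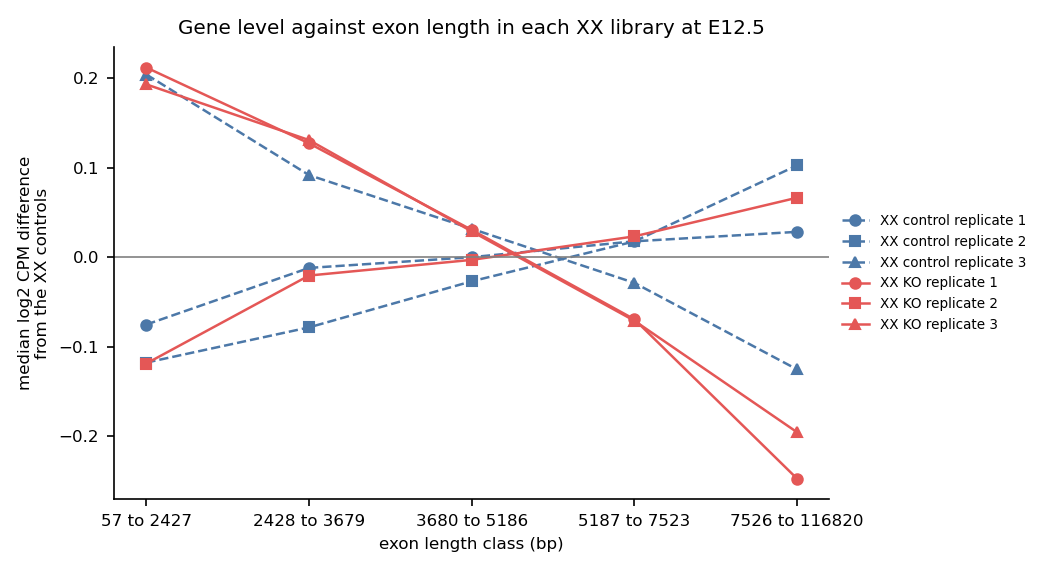
Median log2 difference in CPM of each XX library from the controls (a control from the other 2) in 5 classes of exon length, shortest to longest, 1 line per library. KO replicates 1 and 3 and control replicate 3 fall from the shortest to the longest class, and KO replicate 2 and control replicates 1 and 2 rise.

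Between the groups, the rank correlation of the log2 fold change with length was -0.19 with all libraries, -0.31 without KO replicate 2 and -0.07 without KO replicate 1. For XY gonads it was 0.07, and for XX gonads at E11.5 it was 0.14. With all libraries the DEGs were spread over the classes of length, with 109, 183, 157, 164 and 140 from the shortest (57 to 2427 bases) to the longest (7526 to 116820 bases), of which 64.2%, 73.2%, 68.8%, 58.5% and 57.1% were higher. Without KO replicate 2 the longest class held 560 DEGs, 19.6% of its genes, of which 13.4% were higher, while the shortest held 244, of which 78.3% were higher.

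**Figure D5:**
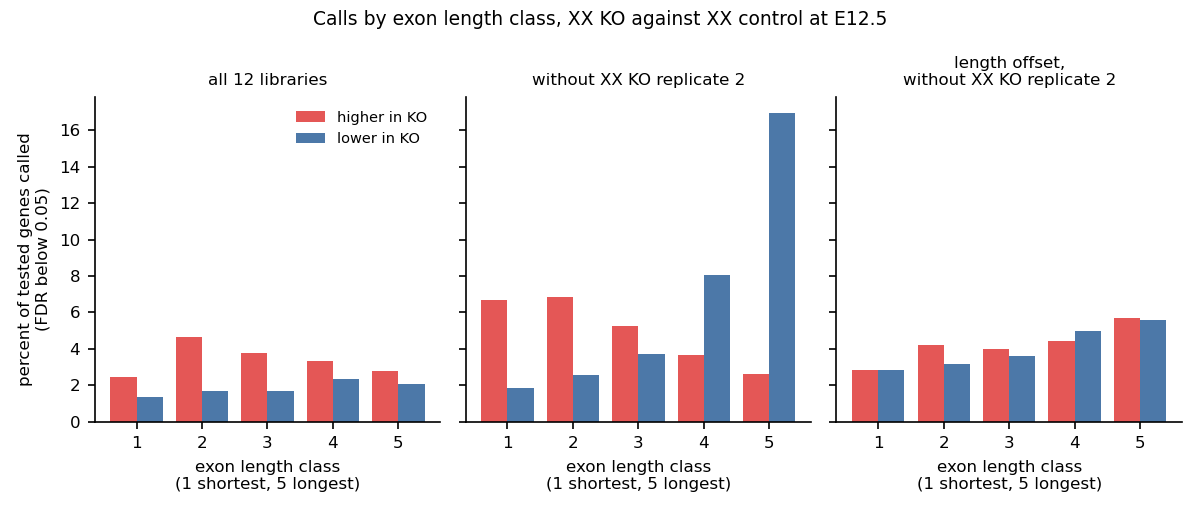
Percent of tested genes that were higher or lower in XX KO gonads at FDR under 0.05 in 5 classes of exon length (1 shortest, 5 longest), in 3 panels for the fits with all libraries, without XX KO replicate 2, and without it but with a length offset. In the longest class 2.79% were higher and 2.09% lower with all libraries, 2.62% and 16.96% without KO replicate 2, and 5.7% and 5.56% with the offset.

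With the length offset the rank correlation was -0.01, and 1003 genes (6.99%) were DEGs, of which 619 were higher. The same offset without KO replicate 2 gave 1186 DEGs, with 51.2% higher, in place of 1670 with 43.1% higher. In the longest class it then left 163 higher and 159 lower, in place of 75 and 485. Under the offset with all libraries, 14 of 20 germ cell genes were lower, and 8 of 12 interstitial genes, 22 of 43 collagen chains, 6 of 12 genes in each tubule list and 4 of 9 smooth muscle and pericyte genes (Acta2, Kcnj8, Notch3 and Tagln) were higher. The embryonic globin genes Hba-x and Hbb-y of the red cell list then fell (-0.75 and -0.74), as did Aard of the Sertoli list (-0.67). GC content of the transcript followed the log2 fold change more closely than length (rank correlation 0.35, and 0.31 under the length offset), and length and GC content were themselves related (-0.28). By library, the rank correlation of the log2 difference with GC content was -0.10, -0.07 and 0.15 in control replicates 1, 2 and 3 and 0.31, 0.05 and 0.48 in KO replicates 1, 2 and 3. In the lowest of 5 equal classes of GC content, the fit with the length offset and without KO replicate 2 still had 217 lower and 55 higher DEGs.

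The predicted targets of the cluster were examined because loss of a microRNA is known to raise the messengers it represses. A match to the seed of any of the 4 families (a 7mer-m8, pairing with bases 2 to 8, or an 8mer, which adds an A opposite base 1) was present in the longest 3′ UTR of 33.2% of 13681 tested genes. Of the 4545 genes with a match 172 were higher and 100 were lower in the KO, and of the 9136 without one 310 were higher and 155 lower. Compared within classes of equal 3′ UTR length, the median log2 fold change of genes with a match was 0.02 above that of genes without, and 0.04 above for an 8mer. By library, the same difference was 0.00, 0.03 and -0.04 in the controls and 0.01, 0.04 and 0.02 in the KO libraries. Without an offset, the difference of 0.02 between the groups thus lay within the spread among controls. Genes with a match were longer (median 5946 against 3818 bases). Under the length offset the difference was 0.03, and 0.06 for an 8mer, where 116 genes were higher and 51 lower. Genes without a match then had 379 higher and 237 lower. Without KO replicate 2 the difference was 0.01, with 207 higher and 446 lower genes with a match, against 500 and 468 without. With the length offset as well, the difference was 0.03, with 223 higher and 229 lower genes with a match, against 373 and 316 without.

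Among 38 tested genes known as targets of the cluster, 4 rose, against 3.42% of all genes tested, and none fell (median 0.03, with 20 positive and 18 negative). An 8mer was present in 20 of the 38, including the 4 that rose and 16 that did not pass. The sites of these 4 are shown because they are the listed targets that rose. The 8 bases that match the seed are in capitals, in a window of 30 bases of the 3′ UTR.
Mylip, miR-19 site (chr13:45411824-45411831, + strand): gcatttgtttcTTTGCACAgacattttgtc
Mylip, miR-92 site (chr13:45411710-45411717, + strand): gacctcatcggGTGCAATActagctaagtt
Tgfbr2, miR-17 site (chr9:116090073-116090080, - strand): caataacgtttGCACTTTAttaatgcctgt
Socs3, miR-19 site (chr11:117966159-117966166, - strand): tcaactcagacTTTGCACAtatatttatat
Itga5, miR-92 site (chr15:103344315-103344322, - strand): ctctgttgcaaGTGCAATAaaccccaccca
Such a match is a description of the sequence and does not show that the site is used.

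Mylip, a ubiquitin ligase for the LDL receptor, was at 33.4, 30.9 and 29.4 CPM in the controls and 54.3, 53.8 and 60.2 CPM in the KO libraries (log2 fold change 0.84 ± 0.12 (SE), FDR = 0.00474). Tgfbr2, the type II TGF-beta receptor, was at 41.3, 35.2 and 46.6 CPM in the controls and 56.4, 81.2 and 76.5 CPM in the KO libraries (log2 fold change 0.80 ± 0.16 (SE), FDR = 0.0141). Socs3, an inhibitor of cytokine signalling, and Itga5, the fibronectin receptor subunit, gave 0.88 (FDR = 0.0194) and 0.59 (FDR = 0.0309). The groups did not overlap for any of the 4, and all 4 also rose without KO replicate 2 and under the length offset. Without control replicate 1, control replicate 2 or KO replicate 3, only 1 of the 38 was higher. E2f3, Itch, Rb1 and Sirt1, named after their values were seen, were lower without KO replicate 2, with log2 fold changes between -0.86 and -0.50, against 6.64% of all genes. Under the length offset with all libraries, 5 of the 38 were higher and 1 lower, against 619 and 384 of all 14348 genes. Rbl2 was then higher as well (0.46, FDR = 0.0167), and E2f3 was the lower one (-0.41, FDR = 0.04).

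Mylip, Kif12 and Zfp651 were among the named DEGs that passed under all 26 other ways of fitting the data, and Clec18a and Sprr2d passed under the 25 that tested them, being too low for a filter at 5 CPM. Zfp651, a zinc finger gene, was at 39.9, 38.6 and 43.4 CPM in the controls and 85.0, 82.7 and 94.1 CPM in the KO libraries (log2 fold change 1.10 ± 0.17 (SE), FDR = 0.00596). The groups did not overlap.

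The direction of the DEGs was compared with the other contrasts of the study. At E11.5, 608 of the 728 DEGs that could be tested there (83.5%) had the same sign in XX gonads, against 61.3% of all 13784 genes tested at both stages. For the lower DEGs the share was 94.7%, and for the higher ones 77.8%. The stages share no library, and tissue and kit differed between them. All 20 germ cell genes were tested at E11.5, where their median log2 fold change was -0.95 and none passed.

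In XY gonads at E12.5, 478 of the 755 DEGs (63.3%) had the same sign, against 51.9% of all genes, and 245 passed in the same direction. The interaction was called for 286 of the 755 (37.9%), 171 of the higher and 115 of the lower DEGs, against 12.9% of all genes. The interaction contains the XX difference by which these DEGs were selected, so the raised share is a description only. Germ cell genes had a median of -0.50 in XY gonads, with 3 of the 20 called for the interaction. The interstitial and collagen lists had XY medians of -0.37 and -0.25, and the interaction was called for 7 of 12 and 26 of 43 of their genes. In the tubule lists the interaction was called for 3 of 12 genes each.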

How the data were processed

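RNA from E12.5 gonads was sequenced in 12 libraries (3 each of XX and XY, control and KO) as 75-base read pairs. Per the labels and the study's methods, the authors aligned reads to mm10 with Subread, assigned them to genes with featureCounts, and deposited the raw counts; versions were not given in the sources used here. The XX libraries held between 15414582 and 44155275 counts. The counts of 12 further per-sample columns, from other tables of the series, were not used here.

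Genes with at least 1 CPM in 2 libraries were fitted with edgeR 4.0.16 (TMM, quasi-likelihood test, R 4.3.3) over all 12 libraries, with Benjamini-Hochberg adjustment and FDR under 0.05. The length offset removed a smooth trend with length, by a spline with 4 degrees of freedom per library. GENCODE annotation on GRCm38 matched 21579 of 21699 identifiers and gave lengths, GC content and 3′ UTRs. Ratios over 1 to 3 control counts carry exact intervals, and 0 control counts were set to 3. Named genes were the host gene, genes the study discusses, the 10 largest changes each way with at least 1 CPM and no overlap (with all libraries, and in both that fit and the one without KO replicate 2), the 5 largest each way called only without it, list members that were DEGs or among the 4 most abundant, and the 5 largest increases with an 8mer. The fits were tested on simulated data. Alternatives were other scalings, filters and tools (DESeq2 1.42.0, limma 3.58.1), offsets, a replicate block and each library left out. The lists and comparisons were chosen with earlier results of these data known. The lists of mitochondrially encoded genes and replication-dependent histones held no tested gene. The 12 libraries of E11.5 were fitted separately. Some genes covered by the rule are not reported here.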

Additional observations from a re-analysis of the deposited data

Results flagged for a closer look

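The effect of the KO differed between XX and XY gonads at E12.5 by edgeR's interaction test (FDR under 0.05) for the following genes named above, given as the log2 effect in XX gonads minus that in XY gonads. Among supporting cell genes the difference was -4.93 for Foxl2, -1.72 for Wnt4, -1.44 for Rspo1, -7.41 for Fst, -1.98 for Kitl, -1.15 for Lef1 and -0.97 for Axin2 on the ovarian side and 3.25 for Sox9 and 9.10 for Amh on the testis side, where the XX values did not pass and the XY values did. Among germ cell genes it was -1.68 for Tfap2c, -2.00 for Rhox6, -1.80 for Rhox9 and -6.74 for Stra8. Rhox6 and Rhox9 were lower in the KO in XX gonads and higher in XY gonads. For interstitial and matrix genes it was 4.11 for Gli1, 1.24 for Gli2, 0.82 for Pdgfra, 1.61 for Tcf21, 1.32 for Wnt5a, 1.29 for Col1a2, 1.32 for Col3a1, 1.39 for Col6a1, 1.40 for Col6a2, 0.99 for Col6a3 and -3.12 for Col19a1. Gli1, Gli2, Tcf21 and Wnt5a were higher in XX KO and lower in XY KO gonads. For tubule genes it was -1.15 for Pax8, -5.61 for Calb1 and -2.12 for Cubn. For the remaining genes it was 3.52 for Aard, -2.15 for Asns, -2.33 for Chst4, 1.34 for Cspg4, 1.95 for Dkk3, 1.60 for Egr1, 5.71 for Hsd3b1, 1.33 for Jun, -0.66 for Mylip, -1.03 for Nkd1, -6.05 for Nmur2, 1.62 for Notch3, 6.93 for Ptgds, 0.75 for Sfrp1, -8.45 for Sprr2d and 0.82 for Zfp651. Every group had 3 libraries.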

How the results depend on the processing

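The 755 DEGs became 296 with the 6 XX libraries alone, 1456 with DESeq2, 1491 with a length and GC offset and 1186 with a length offset and without KO replicate 2. With each library left out in turn they ranged from 35 (without control replicate 1) to 1670 (without KO replicate 2). The share higher in the KO, 64.9%, ranged from 43.1% (without KO replicate 2, where lower DEGs became the majority) to 76.9%. It was 83.4% with the 6 XX libraries alone, 54.1% with those alone and without KO replicate 2, 55.6% with DESeq2, 52.7% with limma voom and quality weights, 68.8% with no filter on low counts, 56.5% with the length and GC offset and 51.2% with the length offset and without KO replicate 2. The cause of these shifts was not tested. The 1857 interaction calls became 2788 with limma voom. The share of DEGs with the same sign at E11.5, 83.5%, was 79.2% with limma voom, 87.5% with at least 5 CPM in 3 libraries, 79.7% with the length offset and without KO replicate 2, 76.3% with the XX libraries alone and without KO replicate 2, and between 70.3% and 86.1% with 1 library left out. The difference for seed matches was 0.036 with 8mers alone in place of 0.016.

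A replicate block left 700 DEGs, and with a length offset 876. Same-numbered XX control and KO libraries deviated together with correlations between -0.11 and 0.29, so the numbers were not taken as pairs. Of the 97 named DEGs, 6 passed under every alternative that tested them (25 or 26) and 47 lost the call with the 6 XX libraries alone, 91 without control replicate 1, 79 without control replicate 2, 75 without KO replicate 3, 7 without KO replicate 2, 7 under the block and 0 under the length offset or DESeq2. No named value changed sign in a called result. The controls held fewer counts than every KO library, which limits the genes with few control counts.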
